A study of Rattus norvegicus with 16 samples.

Results

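The genes described here encode proteins that hepatocytes secrete into plasma: acute phase proteins and protease inhibitors, fibrinogen and clotting factors, complement components, carriers, and apolipoproteins. They are 40 named genes. A gene was represented by the probe set that carries its symbol in the platform annotation and has the highest mean over the 16 arrays. By this rule 33 of the 40 had a probe set, out of 4736 genes on the array with a probe set of 1 symbol: 9 of 10 acute phase genes, 7 of 11 coagulation genes, 2 of 3 complement genes, 7 of 8 carriers and 8 of 8 apolipoproteins. Itih1, F5, F7, Serpinc1 and C5 had no probe set named for them, and Kng1 and Tf had only probe sets annotated to several genes, so these 7 were not analysed here.

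Liver RNA came from male Fischer F344 rats, 6 weeks old on arrival. There were 16 arrays, 4 in each of 4 groups, and each array was taken as 1 rat. Rats were gavaged with saturated sucrose (the vehicle group, titled as untreated in the labels) or with 0.3 mmol/kg of a dithiolethione, given 3 times in 5 days on alternate days, and were killed 24 h after the final dose. The compounds share the 3H-1,2-dithiole-3-thione ring, which is D3T itself. Oltipraz (OLT) adds a methyl and a pyrazinyl group to it, and TBD adds a tert-butyl group. Dithiolethiones are chemopreventive agents known for inducing detoxication enzymes through the transcription factor NRF2. Values are log2 expression values, so a difference of 1 is a doubling of the linear value.

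Hepatocytes make most proteins of blood plasma and export them through the endoplasmic reticulum and Golgi. During inflammation, interleukin-6 and related cytokines reach the hepatocyte through the IL-6 receptor and act through STAT3 and C/EBP factors. They raise the positive acute phase proteins, such as alpha-1-acid glycoprotein, fibrinogen and, in the rat, alpha-2-macroglobulin, while albumin and transthyretin are the classical negative acute phase proteins that fall. The apolipoproteins form and direct lipoprotein particles, the vehicles of lipid in plasma.

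The tissue read as liver: all 11 measured hepatocyte markers outside the members lay above the array median in every group. Array medians ran from 3.27 to 3.58. Among 355 tested probe sets with a mean of 11 or more, the level of most members, 3.66% to 25.6% of values on an array lay beyond those of the 15 other arrays. The shares were highest for TBD replicate 4 at 25.6% and vehicle replicate 2 at 20.6%. Over all 5323 tested probe sets vehicle replicate 2 was furthest out, at 38.1%. Counts are given below with and without the arrays that decide them. Because this is whole liver, fewer hepatocytes and less RNA per hepatocyte cannot be told apart in any difference that follows.

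D3T altered 13 of the 33 measured genes, with 6 higher and 7 lower than vehicle. The risers were Orm1, Apoc1, Apoe, Ttr, Alb and Gc, by 0.49 to 1.29 on the log2 scale. The fallers were Apcs, Crp, Fgb, Fgg, Apoh, Cp and Itih4, with differences of -1.0 to -0.34. A change was called at a Benjamini-Hochberg adjusted p under 0.05 in limma over all tested probe sets. That rule called 18.4% of the 5323 probe sets in this comparison, 6.18% as higher and 12.2% as lower, against 39.4% of the members. The median difference of the 33 was -0.04, beside 0.04 over all tested probe sets.

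OLT changed 3 of the 33, with Apoe higher and Cp and Apoh lower, where 11.3% of all tested probe sets were called, 3.38% as higher and 7.89% as lower. TBD changed 5 of the 33, with Orm1, Apoc1 and Apoe higher and Cp and Apoh lower, where 13% were called, 3.55% as higher and 9.47% as lower. As a share of the members these are 9.09% and 15.2%, near the background in both comparisons. The OLT count was 1 without vehicle replicate 2 or OLT replicate 2 and 7 without TBD replicate 4. Of all 5323 probe sets the OLT comparison called 431, 452 and 714 under these settings, against 600 with all arrays. The TBD count was 2 without vehicle replicate 2 or TBD replicate 2, 3 without TBD replicate 3 and 9 without TBD replicate 4. Over all probe sets the TBD comparison then called 462, 503, 561 and 814, against 693 with all arrays. The 3 comparisons share the vehicle arrays, so a gene called in all of them is not counted as repeated support.

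**Figure D1:**
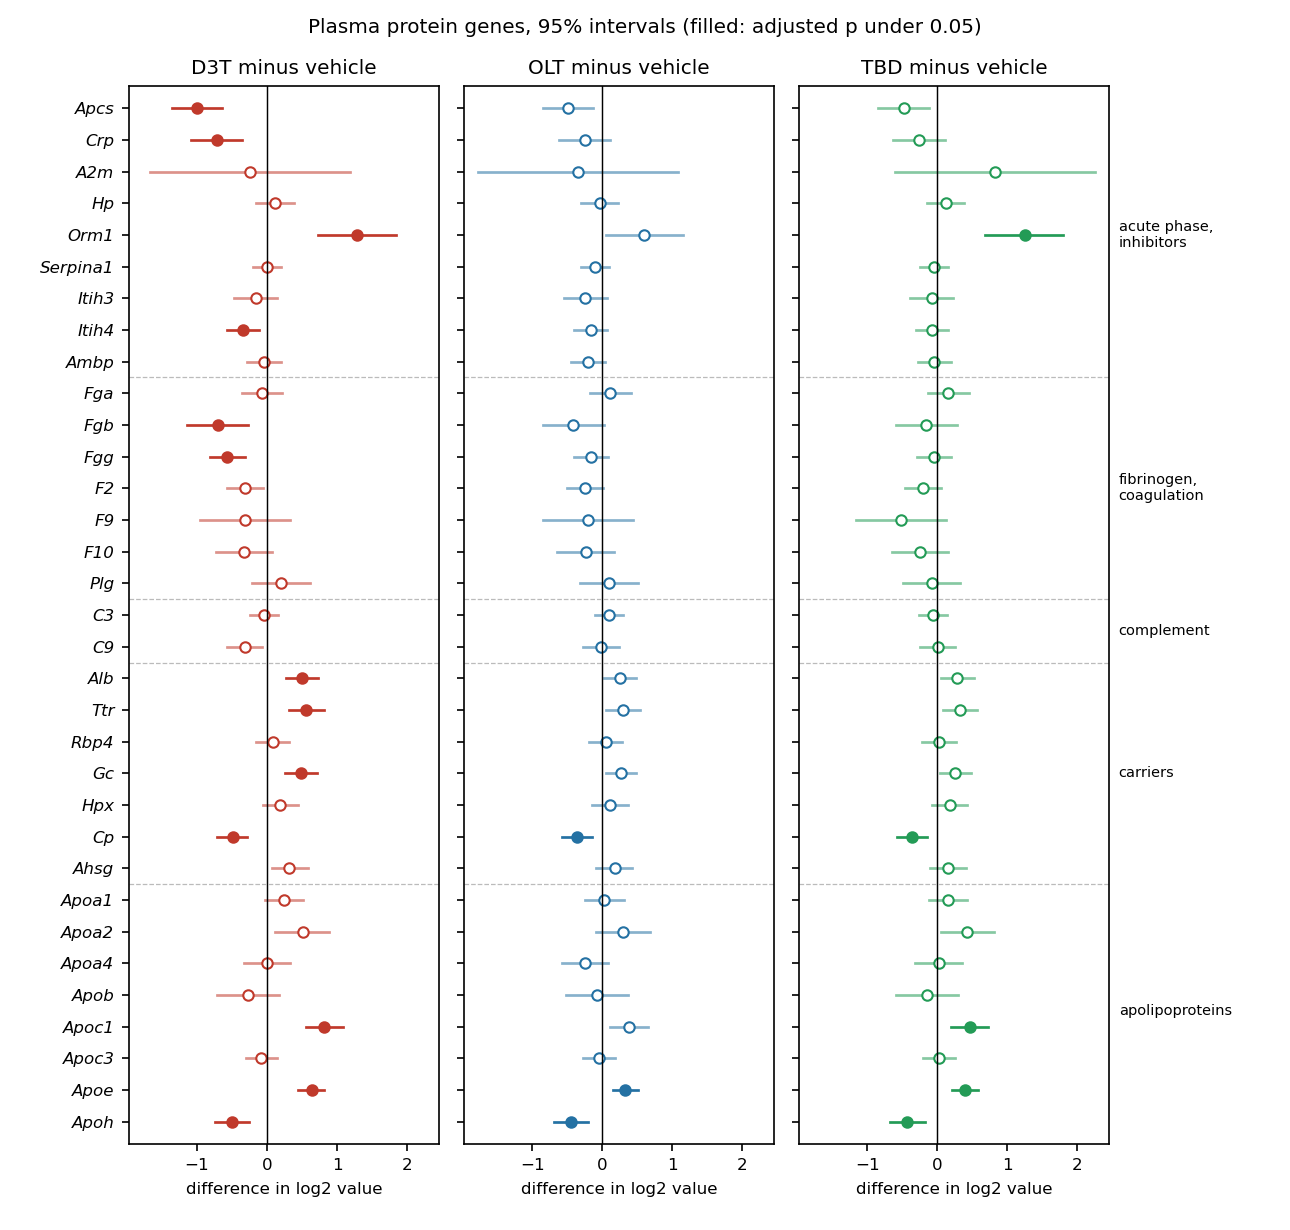
Difference of each compound group from vehicle in log2 value for the 33 measured genes, in rows by class, with 95% intervals of the fit (unadjusted); filled points have an adjusted p under 0.05. Filled points number 13 for D3T, 3 for OLT and 5 for TBD, and the D3T panel has Orm1 furthest to the right at 1.29 and Apcs furthest to the left at -1.0.

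The acute phase class split with D3T, with 1 of 9 genes higher and 3 lower and a median difference of -0.16. Orm1, which encodes alpha-1-acid glycoprotein, a drug-binding plasma protein, had the largest rise of all members. It read 10.17, 10.73, 10.95 and 10.32 in replicates 1 to 4 of vehicle and 11.79, 11.84, 11.97 and 11.73 with D3T. With OLT it read 11.63, 10.70, 11.48 and 10.77, and with TBD 11.57, 11.51, 11.54 and 12.55. All D3T and TBD arrays lay above every vehicle array, while 2 of the OLT arrays fell within the vehicle range. The rise was 1.29 ± 0.26 (log2 ± SE, 2.44-fold, adjusted p = 0.00325) with D3T and 1.25 ± 0.26 (2.38-fold, adjusted p = 0.00542) with TBD. With OLT the difference was 0.60 ± 0.26 (adjusted p = 0.173).

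Apcs and Crp, the genes of the pentraxins serum amyloid P component and C-reactive protein, moved the other way with D3T. Apcs read 11.52, 11.99, 11.75 and 12.12 in vehicle, 10.96, 10.92, 10.88 and 10.60 with D3T, 11.44, 11.44, 11.13 and 11.40 with OLT, and 11.21, 10.97, 11.49 and 11.79 with TBD. The 4 D3T arrays were the lowest of the 16, with TBD replicate 2, at 10.97, the next. The D3T mean was 0.499 of the vehicle level (difference -1.0 ± 0.17, adjusted p = 0.000961). With OLT and TBD the differences were -0.49 ± 0.17 and -0.48 ± 0.17 (adjusted p = 0.0759 and 0.0771), not past the threshold.

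Crp read 11.83, 11.77, 11.99 and 12.02 in vehicle and 11.32, 10.75, 11.30 and 11.38 with D3T, without overlap. Its OLT values were 11.57, 11.88, 11.59 and 11.58, and its TBD values 11.62, 11.56, 11.24 and 12.14. The D3T difference was -0.72 ± 0.17 (adjusted p = 0.01). The ranges of OLT and TBD met that of vehicle, with differences of -0.25 ± 0.17 and -0.26 ± 0.17 (adjusted p = 0.486 and 0.427).

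The remaining acute phase genes moved less. Itih4, a heavy chain of the inter-alpha-trypsin inhibitor family, was 12.05 ± 0.10 (SD, n = 4) in vehicle and 11.71 ± 0.08 with D3T. Its call was near the threshold (difference -0.34 ± 0.11, adjusted p = 0.0434) and held under 14 of 26 other settings. Hp (haptoglobin), Serpina1 (alpha-1-antitrypsin), Itih3 and Ambp (the precursor of alpha-1-microglobulin and bikunin) lay between -0.24 and 0.12 in every comparison with vehicle and none passed. A2m, alpha-2-macroglobulin, the classical strongly induced acute phase protein of the rat, read between 5.09 and 6.25 on 15 arrays and 9.46 on TBD replicate 4.

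Of the 7 measured coagulation genes, 2 fell with D3T and none rose, and both that fell are fibrinogen chains. Fgb, the beta chain, read 13.33, 13.33, 13.36 and 13.55 in vehicle and 12.57, 12.80, 12.79 and 12.59 with D3T. Its other values were 12.53, 13.29, 12.90 and 13.22 with OLT and 13.22, 12.95, 12.87 and 13.91 with TBD. All D3T arrays were below all vehicle arrays, and OLT and TBD spread widely, with TBD replicate 4 the highest of the 16. The D3T difference was -0.70 ± 0.20 (adjusted p = 0.0263), and it no longer passed without vehicle replicate 2 or 4 or D3T replicate 1 or 4, with adjusted p from 0.0536 to 0.0721. Averaged with a dim, untested Fgb probe set of mean 2.67 it was -0.35 (adjusted p = 0.0561).

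Fgg, the gamma chain, was tighter. Vehicle arrays read 13.14, 13.31, 13.24 and 13.29, D3T arrays 12.68, 12.74, 12.77 and 12.50, OLT arrays 12.92, 13.21, 13.01 and 13.21, and TBD arrays 13.21, 12.87, 13.27 and 13.44. The 4 D3T values were the lowest of the 16. D3T differed from vehicle by -0.57 ± 0.11 (adjusted p = 0.0033), while OLT and TBD differed by -0.16 ± 0.11 and -0.05 ± 0.11 (adjusted p = 0.529 and 1). Fga, the alpha chain, was 13.09 ± 0.09 in vehicle and 13.02 ± 0.11 with D3T (difference -0.07, adjusted p = 0.778).

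None of F2, F9, F10 and Plg passed in any comparison with vehicle. F2 (prothrombin), F9 and F10 had D3T differences of -0.31, -0.31 and -0.33 with adjusted p of 0.0942, 0.532 and 0.254. Plg, plasminogen, the zymogen that dissolves fibrin, differed by 0.20 (adjusted p = 0.535). The median of the 7 genes of this class was -0.31 with D3T, -0.20 with OLT and -0.16 with TBD. In limma 0 of the 7 passed with OLT or TBD, and 0 had an unadjusted p under 0.05. All tested probe sets gave 23.1% and 24.3% at that unadjusted p.

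The complement members C3, on which all activation pathways converge, and C9, the pore-forming component, did not pass either. At an unadjusted p under 0.05 in limma, C9 passed with D3T and 0 of the 2 with OLT or TBD. All tested probe sets gave 30.8%, 23.1% and 24.3% with D3T, OLT and TBD. C3 was 14.11 ± 0.04 in vehicle and 14.07 ± 0.11, 14.21 ± 0.12 and 14.05 ± 0.18 with D3T, OLT and TBD (n = 4 each). The 95% interval of its D3T difference ran from -0.24 to 0.16. C9 was 11.45 ± 0.16 in vehicle and 11.13 ± 0.23 with D3T (difference -0.32, adjusted p = 0.0764).

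Of the 7 measured carriers, 3 rose and 1 fell with D3T, with a median difference of 0.32. Alb, albumin, read 15.39, 15.38, 15.40 and 15.46 in vehicle and 15.90, 15.90, 15.91 and 15.91 with D3T. With OLT it read 15.57, 15.77, 15.52 and 15.80, and with TBD 15.94, 15.73, 15.77 and 15.34. Every D3T and OLT array was above all vehicle arrays, and TBD replicate 4 was below them. The D3T rise was 0.50 ± 0.11 (1.41-fold, adjusted p = 0.00537). The albumin probe set was the brightest of all on 14 of the 16 arrays. Forcing all arrays to 1 distribution (renewed quantile normalization), which sets the brightest values equal by construction, left 0.10 (adjusted p = 0.108).

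Ttr, transthyretin, the carrier of thyroxine and of retinol-binding protein, read 13.95, 13.82, 13.91 and 14.06 in vehicle and 14.46, 14.56, 14.49 and 14.47 with D3T. Its OLT values were 13.96, 14.33, 14.34 and 14.30, and its TBD values 14.45, 14.35, 14.32 and 13.92. The D3T arrays were the 4 highest of the 16, while OLT replicate 1 and TBD replicate 4 lay within the vehicle range and the other 6 arrays of those groups above it. D3T raised it by 0.56 ± 0.11 (1.48-fold, adjusted p = 0.00364), and by 0.36 after renewed quantile normalization, where it still passed. OLT and TBD differed by 0.30 ± 0.11 and 0.33 ± 0.11 (adjusted p = 0.117 and 0.0779).

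Gc, the vitamin D-binding protein, was also highest with D3T. It read 13.42, 13.35, 13.51 and 13.34 in vehicle, 13.84, 13.96, 13.86 and 13.91 with D3T, 13.36, 13.87, 13.59 and 13.87 with OLT, and 13.77, 13.71, 13.64 and 13.55 with TBD. D3T and TBD arrays were all above vehicle, and OLT replicate 1 was not. The D3T difference was 0.49 ± 0.10 (1.4-fold, adjusted p = 0.00485; 0.28 after renewed quantile normalization, still past the threshold), against 0.27 ± 0.10 with OLT and 0.26 ± 0.10 with TBD (adjusted p = 0.12 and 0.122).

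Cp was the carrier that fell. It encodes ceruloplasmin, the copper-containing ferroxidase, and at its chosen probe set it fell with all compounds. Vehicle arrays read 12.35, 12.43, 12.51 and 12.25, D3T arrays 11.77, 11.78, 12.04 and 11.97, OLT arrays 11.87, 12.01, 12.14 and 12.07, and TBD arrays 12.20, 12, 11.83 and 12.07. All 12 treated arrays were below all 4 vehicle arrays. The differences were -0.49 ± 0.10 with D3T (adjusted p = 0.0032), -0.36 ± 0.10 with OLT (0.0281) and -0.36 ± 0.10 with TBD (0.0261). The OLT and TBD calls of Cp were both lost without vehicle replicate 2 (adjusted p = 0.0694 and 0.0662) or 3 (0.0772 and 0.075). The OLT call was also lost without OLT replicate 1 (0.0745) or 2 (0.0607), and the TBD call without TBD replicate 2 (0.0657) or 3 (0.0819). Both were lost too with centred medians, with a fit of only the arrays compared, and with the mean of all Cp probe sets, where the differences were -0.86 with D3T, -0.04 with OLT and -0.24 with TBD. The further Cp probe sets gave -0.13 and 0.36 with OLT and -0.35 and -0.00 with TBD, none past the threshold.

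The other carriers were called in no comparison. Ahsg, fetuin-A, an inhibitor of tissue calcification, was 13.49 ± 0.04 in vehicle and 13.82 ± 0.05 with D3T, with no overlap, and missed the threshold (0.32 ± 0.12, adjusted p = 0.0773). Hpx, the haem scavenger hemopexin, differed by 0.19 with D3T, and Rbp4, the retinol carrier, by 0.08.

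Of the 8 apolipoproteins, Apoc1 and Apoe rose and Apoh fell with D3T, with a median difference of 0.12. Apoe, the ligand through which lipoprotein remnants are taken up, read 13.73, 13.60, 13.75 and 13.89 in vehicle and 14.36, 14.35, 14.42 and 14.37 with D3T. It read 13.96, 14.14, 13.96 and 14.23 with OLT and 14.16, 14.23, 14.19 and 13.98 with TBD. All treated arrays were above all vehicle arrays, and the D3T arrays were the 4 highest. The rise was 0.64 ± 0.09 with D3T (1.56-fold, adjusted p = 0.000213), 0.33 ± 0.09 with OLT (1.26-fold, 0.0212) and 0.40 ± 0.09 with TBD (1.32-fold, 0.00674). The OLT call of Apoe was lost without vehicle replicate 2 (adjusted p = 0.0644) or OLT replicate 2 (0.0574) or 4 (0.0616).

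Apoc1, which inhibits lipoprotein receptor binding, gave 12.59, 12.37, 12.56 and 12.59 in vehicle and 13.30, 13.44, 13.37 and 13.30 with D3T. Its OLT values were 12.96, 12.96, 12.88 and 12.86, and its TBD values 13.07, 13.24, 13.14 and 12.53. D3T and OLT arrays lay above vehicle without overlap, and TBD replicate 4 lay within the vehicle range. The differences were 0.82 ± 0.12 with D3T (1.77-fold, adjusted p = 0.000445), 0.39 ± 0.12 with OLT (0.0562) and 0.47 ± 0.12 with TBD (0.0212). The TBD call was lost without vehicle replicate 2 (adjusted p = 0.0687) and without TBD replicate 1 (0.0563), 2 (0.0722) or 3 (0.0619).

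Apoh, beta-2-glycoprotein I, a phospholipid-binding plasma protein, fell with every compound. It read 14.07, 14.18, 14.17 and 14.37 in vehicle, 13.55, 14.02, 13.70 and 13.54 with D3T, 13.86, 13.79, 13.53 and 13.84 with OLT, and 13.80, 13.61, 13.87 and 13.79 with TBD. No treated array reached the vehicle range. The differences were -0.50 ± 0.11 (adjusted p = 0.00778), -0.44 ± 0.11 (0.0214) and -0.43 ± 0.11 (0.0228) with D3T, OLT and TBD. The OLT call of Apoh was lost without vehicle replicate 4 (adjusted p = 0.0713) or OLT replicate 3 (0.0725), and the TBD call without vehicle replicate 2 (0.0501) or 4 (0.0754) or TBD replicate 2 (0.075).

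The 5 other apolipoproteins did not pass at their chosen probe sets in any comparison with all 16 arrays. Apob, the structural protein of very low density lipoprotein, was 12.86 ± 0.28 in vehicle and 12.58 ± 0.23 with D3T. Apoa1, Apoa2 and Apoa4, of high density lipoprotein, had D3T differences of 0.25, 0.51 and 0.00 (adjusted p = 0.211, 0.0644 and 0.992). Without TBD replicate 4 Apoa2 passed with D3T (adjusted p = 0.0136) and TBD (0.00772). Apoc3, an inhibitor of lipoprotein lipase, differed by -0.08 at its chosen probe set, and other Apoc3 probe sets rose (0.68 and 0.53, adjusted p = 0.0056 and 0.019).

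**Figure D2:**
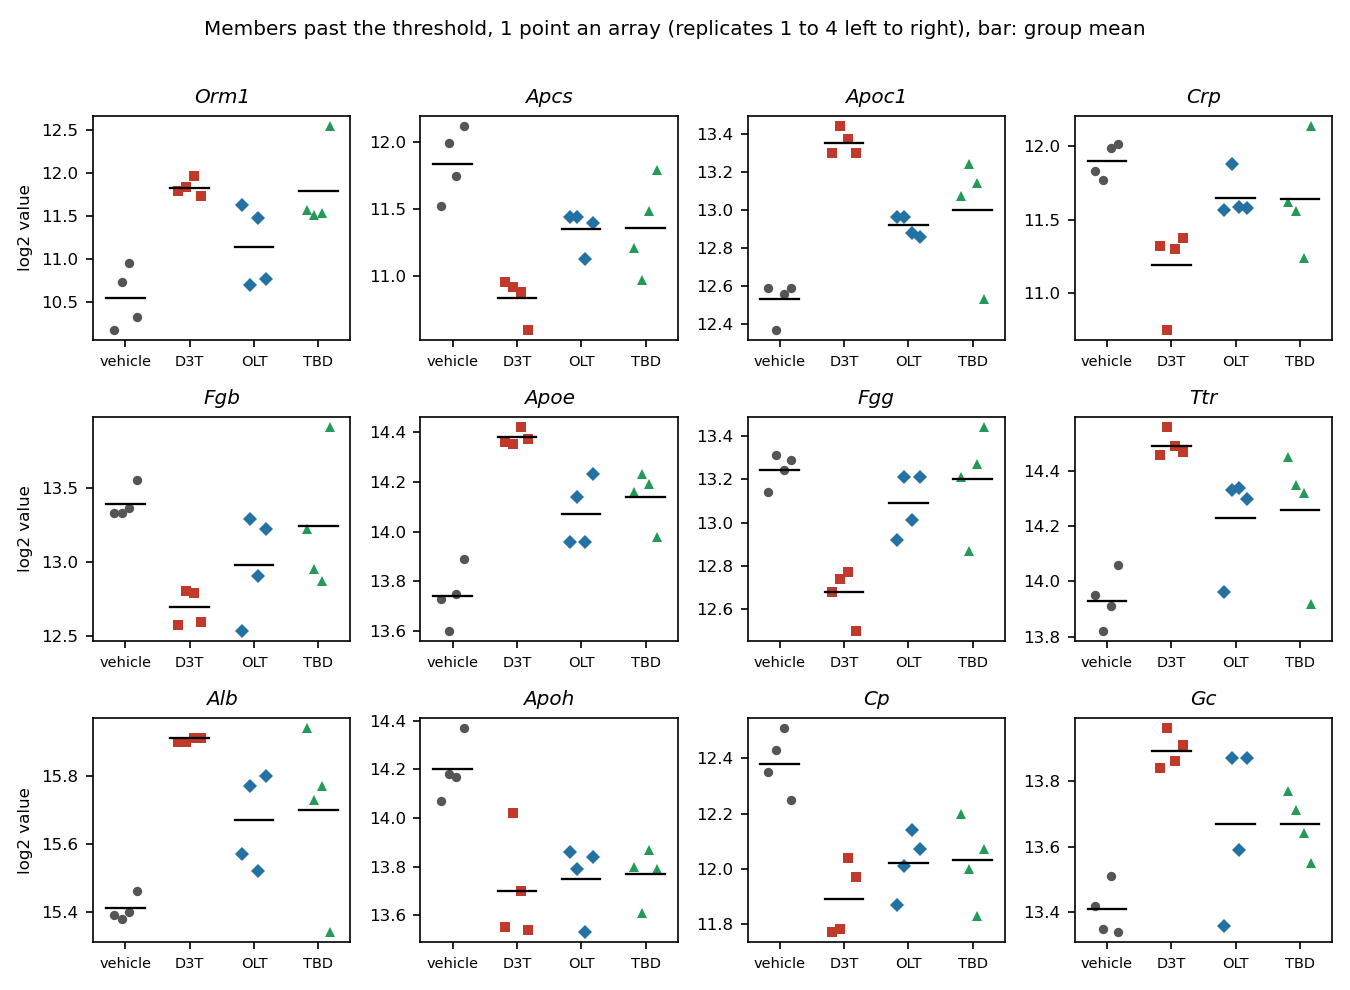
Log2 values of the 12 members with the largest changes past the threshold and no overlap with vehicle in at least 1 comparison; each point is 1 array, replicates 1 to 4 from left to right, and bars are group means. The D3T points lie apart from the vehicle points in all 12 panels, and TBD replicate 4, the rightmost triangle, is the highest TBD array for Orm1 at 12.55 and the lowest for Alb at 15.34.

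Counting members whose 4 arrays did not overlap those of vehicle gave 17 for D3T (9 higher, 8 lower), where 24.9% of all tested probe sets did not overlap (9.07% higher, 15.8% lower). It gave 7 for OLT (3 higher, 4 lower), where 14.7% did not overlap (4.88% higher, 9.79% lower), and 5 for TBD (3 higher, 2 lower), where 14.3% did not (3.98% higher, 10.3% lower). A test of any difference among the 4 groups called 10 of 33 members (background 14.5%): Apoe, Apoc1, Apcs, Orm1, Fgg, Cp, Ttr, Apoh, Gc and Alb. It called 5 of them without vehicle replicate 2, and 6 without vehicle replicate 3. Of all 5323 probe sets it then called 506 and 648, against 774 with all arrays.

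The promoters of 3 of the 5 members called in the most comparisons follow, from the RefSeq table of rat build GRCr8. They are the members whose gene has a single start there. Apoe and Apoc1 have 3 and 2 listed starts and are not shown. Each run is the 250 bases before the transcription start, 5′ to 3′ on the gene's strand, and capitals mark a match to one of 6 motifs searched on both strands.

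Orm1 (chr5:81788259-81788508, plus strand): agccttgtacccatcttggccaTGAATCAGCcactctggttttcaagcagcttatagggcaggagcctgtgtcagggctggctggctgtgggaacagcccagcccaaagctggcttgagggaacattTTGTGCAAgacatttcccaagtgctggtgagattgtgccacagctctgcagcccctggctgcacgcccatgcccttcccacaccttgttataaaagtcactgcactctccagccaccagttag
Cp (chr2:104368420-104368669, plus strand): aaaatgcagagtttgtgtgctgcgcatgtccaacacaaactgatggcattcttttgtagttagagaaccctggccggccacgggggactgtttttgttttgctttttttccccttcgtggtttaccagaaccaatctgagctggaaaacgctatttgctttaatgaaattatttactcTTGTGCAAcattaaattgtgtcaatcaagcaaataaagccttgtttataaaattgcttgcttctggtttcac
Apoh (chr10:93841742-93841991, plus strand): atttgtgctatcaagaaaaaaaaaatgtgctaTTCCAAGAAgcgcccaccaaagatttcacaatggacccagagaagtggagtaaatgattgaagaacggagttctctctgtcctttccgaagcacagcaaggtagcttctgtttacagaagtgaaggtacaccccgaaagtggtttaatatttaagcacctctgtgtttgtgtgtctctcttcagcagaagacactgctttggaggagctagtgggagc

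The capitals in Orm1 are, from the 5′ end, a match to TGANNNNGC, 228 to 220 bases before the start, and a match to the C/EBP motif TTGCNNAA, 123 to 116 bases before it. TGANNNNGC was searched as a loose form of the antioxidant response element core, and whether the Orm1 match is such an element was not tested. Cp holds the same C/EBP letters, 72 to 65 bases before its start, and in both genes the match is on the opposite strand. Apoh holds a match to the STAT motif TTCNNNGAA, 218 to 210 bases before its start. Over 27457 genes in the table, taking the first listed start of each, TGANNNNGC was found in 34.6%, TTGCNNAA in 9.2% and TTCNNNGAA in 7.52% of the 250-base windows. Among the 26 measured members with a window the shares were 38.5% (10 genes), 42.3% (11 genes) and 19.2% (5 genes). The AP-1 motif TGACTCA was in 2 of the 26 (7.69%, against 3.98%). The palindromic HNF1 motif and the HNF4 motif CAAAGTCCA were in 0 of the 26, against 0.00364% and 0.331% of all windows. These are letter matches that describe the windows and were not tested against the expression values.

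Many of these genes had further probe sets, and these did not always move with the chosen one. There were 28 other tested probe sets for 18 members. With D3T, 7 members called at the chosen probe set had another, and for 6 of them another was called in the same direction. Alb rose at its others by 0.42 and 0.62, Apoe by 0.83, and further probe sets of Fgg (-0.86), Cp (-0.96) and Apoh (-0.42) fell. The 6 include Crp, where both further probe sets, tied to Crp by the platform annotation alone, read lower (-1.28 and -1.21). Whether they read the Crp transcript was not tested. Ttr's other probe set gave 0.36 (adjusted p = 0.0859).

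Of 11 members not called with D3T that had another tested probe set, 7 had another that was called. Serpina1 gave 0.00 at the chosen and 0.63 (adjusted p = 0.00841) at another. Other probe sets of Apoc3 rose as given above, as did one of Ahsg (0.51, adjusted p = 0.0127) and one of Ambp (0.32, 0.032). F10 (-0.55, adjusted p = 0.015) and Fga (-1.02, 0.0298) fell at a further probe set. A dim probe set of A2m, at a mean of 4.73, gave 0.61 (0.0125). With TBD, both further probe sets annotated to Crp read lower (-1.24 and -1.05, adjusted p = 0.0277 and 0.0226), and Crp differed by -0.26 at the chosen one. Which probe set follows the transcript was not tested, and the counts of members above hold for the chosen probe sets alone.

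**Figure D3:**
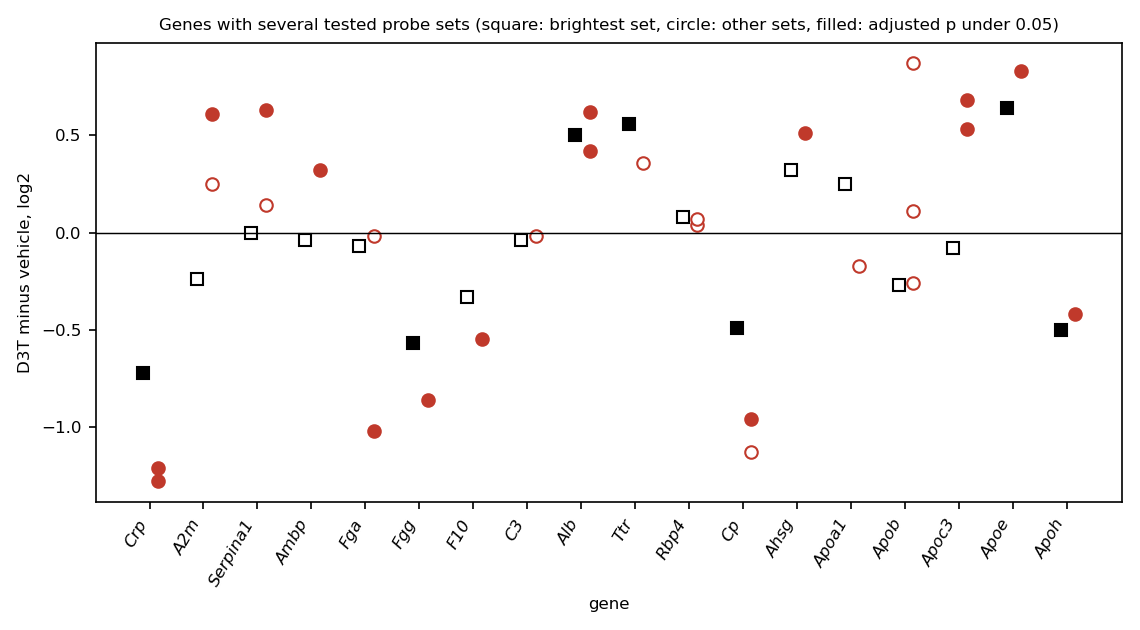
D3T minus vehicle in log2 value for the 18 members with several tested probe sets; the square is the chosen, brightest probe set, circles are the others, and filled symbols have an adjusted p under 0.05. Serpina1 and Apoc3 have an open square near 0 and filled circles above it, up to 0.63 and 0.68.

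The compounds were compared with each other at the same dose and time in 3 pairs, each adjusted over all tested probe sets. None of the 33 members passed in any pair, where 1.07% (D3T against OLT), 0.658% (D3T against TBD) and 0.0564% (TBD against OLT) of tested probe sets were called by limma. At an unadjusted p under 0.05, 9, 9 and 1 members passed, and 12.3%, 10% and 2.72% of all probe sets. The arrays of D3T and OLT did not overlap at 9 members (5 higher with D3T, 4 lower), against 7.53% of probe sets (3.49% and 4.04%). Those of D3T and TBD did not overlap at 8 (4 higher, 4 lower), against 9.21% (6.95% and 2.25%), and those of TBD and OLT at 0, against 1.05% (0.282% and 0.77%).

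The unsubstituted D3T stood nearest to a difference from a substituted compound at a few genes. Fgg was lower with D3T than with TBD (-0.52, 95% interval -0.76 to -0.28, adjusted p = 0.0553) and than with OLT (-0.41, -0.66 to -0.17, adjusted p = 0.115), neither past the threshold. Without TBD replicate 2 the difference of Fgg from TBD was -0.63 and passed (adjusted p = 0.0106), as it did with an intensity trend in the variance (0.0492). Apoc1 was higher with D3T than with OLT by 0.44 (0.18 to 0.70, adjusted p = 0.118), and it passed when TBD replicate 4 was left out (adjusted p = 0.00859) or when the fit held only the D3T and OLT arrays (0.0389). Apoe was higher with D3T than with OLT by 0.31 (0.12 to 0.49, adjusted p = 0.115). D3T was above TBD by 0.36 at Apoc1 and 0.24 at Apoe (adjusted p = 0.294 and 0.308).

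TBD and OLT, which differ in their ring substituents, gave close means for many members, and the intervals set how far they could differ. Their Cp difference was 0.00 (95% interval -0.21 to 0.21), that of Gc -0.01 (-0.23 to 0.22) and that of Apcs 0.01 (-0.35 to 0.37). Orm1 was 0.65 higher with TBD than with OLT (0.09 to 1.2, adjusted p = 1), and their ranges overlapped. At their chosen probe sets Cp and Apoh differed little between D3T and OLT too, Cp by -0.13 (-0.34 to 0.08) and Apoh by -0.05 (-0.30 to 0.19). Between D3T and TBD these differences were -0.14 and -0.07. The further Cp probe sets differed more, by -0.83 and -1.49 between D3T and OLT (adjusted p = 0.269 and 0.225). Between D3T and TBD they differed by -0.61 and -1.12 (adjusted p = 0.539 and 0.459).

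Single rats decided several of these counts. TBD replicate 4 read beyond all 15 other arrays at 11 of the 33 members (8 high, 3 low), against 25.6% of the tested probe sets with a mean of 11 or more and 9.07% of all. TBD replicate 3 did so at 9 (19.4% of those bright probe sets), OLT replicate 1 at 8 (11%) and the 13 other arrays at 0 to 6 members. TBD replicate 4 lay above the other 3 TBD arrays at 8 of 9 acute phase genes, at 3 of 7 coagulation genes and at C9. It lay below them at 4 of 7 carriers and 6 of 8 apolipoproteins. In all it was the highest or lowest TBD array at 23 members and at 43.3% of all tested probe sets. A2m was 3.91 higher than the mean of the other 3, Orm1 1.01, F9 1.01, Fgb 0.90, Crp 0.67 and Apcs 0.58. Its differences from that mean were -0.80 at Apoa2, -0.62 at Apoc1, -0.58 at Apoa4, -0.48 at Alb and Apoa1 and -0.46 at Ttr. In this rat A2m, Orm1, fibrinogen beta and both pentraxins read high within the TBD group, and albumin, transthyretin, Apoa1, Apoa2 and Apoc1 low. Not all genes of these classes stood out: Fga (0.13), C3 (0.16), Cp (0.06) and Hpx (-0.05) lay within the range of the other 3, and Hp was 0.17 above their mean.

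OLT replicate 1 was the lowest OLT array at 20 members and the highest at 3. Over all tested probe sets it was the highest or lowest OLT array at 51.2%. It lay below the other 3 OLT arrays at 6 of 7 carriers, 6 of 8 apolipoproteins and 4 of 7 coagulation genes. It differed from the mean of the others by -0.61 at Fgb, -0.50 at Ahsg, -0.49 at Hp and -0.42 at Gc, and by 0.64 at Orm1. The median SD of the members was 0.11 in vehicle, 0.12 with D3T, 0.19 with OLT and 0.24 with TBD.

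**Figure D4:**
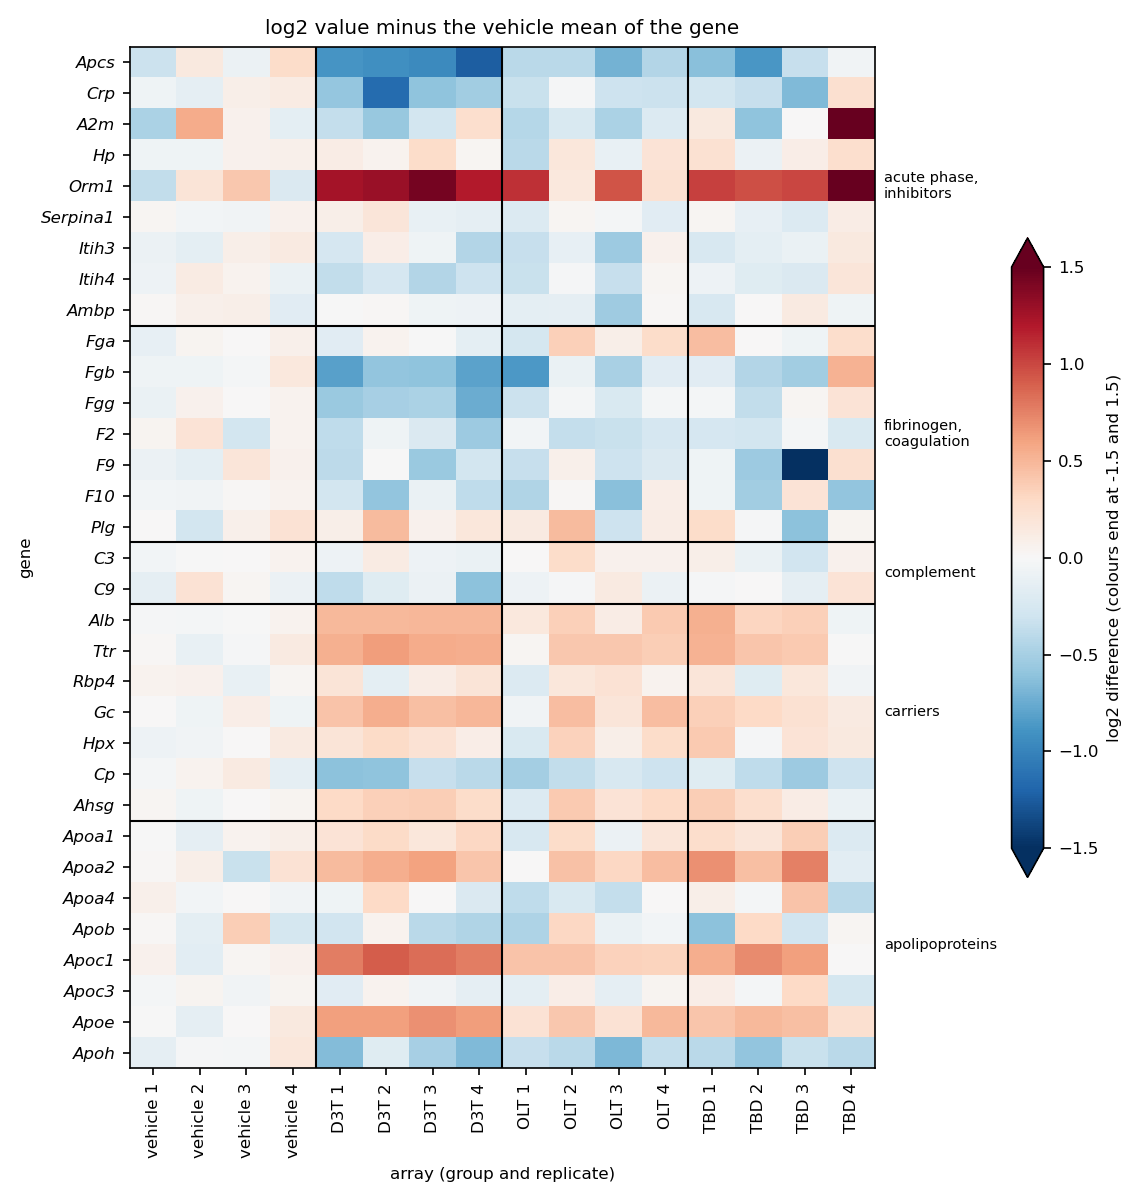
Log2 value of each array minus the vehicle mean of the gene for the 33 members (rows, by class) on the 16 arrays (columns); red is higher and blue lower, and colours end at -1.5 and 1.5. Ttr and Apoc1 are red on every D3T array, and the last column, TBD replicate 4, is red at A2m and Orm1 and pale at Alb, Ttr and Apoc1.

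Without TBD replicate 4 and OLT replicate 1 together the counts were 15 for D3T (8 higher, 7 lower), 9 for OLT (7 higher, 2 lower) and 11 for TBD (7 higher, 4 lower). The background then was 20.7%, 13.2% and 16.2%. Without TBD replicate 4 alone they were 14, 7 and 9, where 1054, 714 and 814 of all 5323 probe sets were called. Without OLT replicate 1 alone they were 14, 4 and 6, where 1002, 578 and 693 were called. With both left out, OLT was called higher at Alb (0.29, adjusted p = 0.0426), Ttr (0.39, 0.00544), Gc (0.37, 0.0152), Ahsg (0.30, 0.0317), Apoa2 (0.40, 0.0499), Apoc1 (0.37, 0.0114) and Apoe (0.37, 0.0154), while Cp was no longer called lower (-0.31, 0.0816). OLT was called lower at Apcs (-0.52, 0.05 after rounding) and Apoh (-0.48, 0.0304). TBD was then called higher at Orm1 (1.0, 0.00478), Alb (0.41, 0.00659), Ttr (0.44, 0.00196), Gc (0.30, 0.033), Apoa2 (0.63, 0.00404), Apoc1 (0.62, 0.000414) and Apoe (0.45, 0.00398). TBD was lower at Apcs (-0.62, 0.0179), Fgb (-0.38, 0.0489), Cp (-0.37, 0.0315) and Apoh (-0.44, 0.0372). The arrays were left out for how they read, so these counts describe the other 14 rats.

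Complement genes outside the members were called lower, and none was called higher. Of 10 tested, 7 were lower with D3T, 5 with OLT and 4 with TBD, with median differences of -0.53, -0.37 and -0.41. Of all tested probe sets 12.2%, 7.89% and 9.47% were called lower in these comparisons, the background also for the lists that follow. That background includes many dim probe sets. Among probe sets outside the members with a mean of 8 to 11, 21.1%, 13.5% and 17.3% were called lower. C4bpb, the beta chain of the C4b-binding protein that restrains complement, read 10.71, 11.24, 10.65 and 11.37 in vehicle and 9.36, 10.04, 9.58 and 9.46 with D3T. Its OLT values were 9.55, 9.56, 9.65 and 10.25, and its TBD values 9.63, 9.54, 10.09 and 10.98. D3T and OLT arrays were all below vehicle, and TBD replicate 4 was not. The differences were -1.38 ± 0.29, -1.24 ± 0.29 and -0.93 ± 0.29 (adjusted p = 0.00405, 0.012 and 0.046).

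Mbl1, a mannose-binding lectin that starts the lectin pathway, and C1s, a protease of the classical pathway, fell with all compounds as well. Mbl1 differed by -1.18 ± 0.16 with D3T, -0.73 ± 0.16 with OLT and -0.84 ± 0.16 with TBD (adjusted p = 0.000251, 0.00965 and 0.00326). C1s differed by -1.16 ± 0.16, -0.87 ± 0.16 and -0.59 ± 0.16 (adjusted p = 0.000323, 0.00357 and 0.0277).

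Among other coagulation genes 4 of 7 fell with D3T, none with OLT and 1 with TBD, and none rose. Klkb1, plasma prekallikrein, differed by -1.07 ± 0.20 with D3T (adjusted p = 0.00191) and -0.66 ± 0.20 with TBD (0.0408). The anticoagulant genes Proc, protein C, and Pros1, protein S, fell with D3T (-0.58 and -0.56, adjusted p = 0.016 and 0.0145). With OLT Klkb1 differed by -0.62 (adjusted p = 0.0588), and 2 of the 7 had an unadjusted p under 0.05 in limma, beside 23.1% of all tested probe sets. Of 11 other acute phase and inhibitor genes, Ctsl and Azgp1 fell with D3T (-0.75 and -0.43). With OLT or TBD 0 passed in limma, and 4 and 4 had an unadjusted p under 0.05. Such a p was found at 23.1% and 24.3% of all tested probe sets.

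In lipoprotein remodelling, Lipc, hepatic lipase, fell with every compound. It read 11.51, 11.48, 11.48 and 11.75 in vehicle and between 10.46 and 11.05 on the 12 treated arrays, without overlap. The differences were -0.83 ± 0.13, -0.87 ± 0.13 and -0.73 ± 0.13 with D3T, OLT and TBD (adjusted p = 0.000748, 0.00116 and 0.00246). Lcat, which esterifies cholesterol in high density lipoprotein, fell by 0.26 with D3T (adjusted p = 0.0497). Scarb1, the receptor for high density lipoprotein, rose by 1.33 ± 0.37 with OLT (adjusted p = 0.0305). Its vehicle arrays read 7.15, 7.01, 7.17 and 5.39, so the low replicate 4 enlarges this difference. The means with D3T and TBD, 7.75 and 7.56, were also above the vehicle mean of 6.68 but were not called. In all, 2 of 6 tested genes of this list changed with D3T, 2 with OLT and 1 with TBD.

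A further list held genes of acute phase signalling together with general liver transcription factors. Of its 15 tested genes, 1 was higher and 3 lower with D3T, and 4 were lower with OLT and with TBD. In each comparison 11 of the 15 did not pass, and the medians were -0.04, -0.10 and -0.08. Of all tested probe sets 18.4%, 11.3% and 13% were called. Il6r, the interleukin-6 receptor, read 10.18, 10.66, 10.11 and 10.49 in vehicle. It read 8.10, 8.23, 8.53 and 8.16 with D3T, 8.46, 7.58, 7.93 and 8.92 with OLT, and 8.36, 7.80, 8.45 and 8.22 with TBD. No treated array came near the vehicle range. The differences were -2.10 ± 0.24, -2.14 ± 0.24 and -2.15 ± 0.24 (adjusted p = 7.08e-05, 0.000107 and 9.35e-05).

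Cebpb, a C/EBP factor of the acute phase response, fell, with differences of -0.87 with D3T, -1.31 with OLT and -1.04 with TBD (adjusted p = 0.0159, 0.00217 and 0.00773). Foxa3, a liver forkhead factor, fell too (-0.89, -0.88 and -0.90, adjusted p = 0.014, 0.022 and 0.0172). Nr0b2, the nuclear receptor SHP, fell, with differences of -1.5 with OLT and -1.71 with TBD (adjusted p = 0.0254 and 0.0115). Cebpa rose with D3T by 0.63 (adjusted p = 0.0106), from a mean of 4.02 to 4.65. Both means are dim, not far above the array medians of 3.27 to 3.58.

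Of 19 secretory pathway genes tested, 4 fell and 1 rose with D3T, 1 fell with OLT and 2 fell with TBD. These shares were 26.3%, 5.26% and 10.5%, beside 18.4%, 11.3% and 13% of all tested probe sets. For OLT and TBD they do not exceed that background, in which 2918 probe sets had a mean under 5. With D3T, 12.8% of other probe sets with a mean of 8 to 11 were called higher and 21.1% lower. At a mean of 11 to 13 these were 21% and 15.3%, so no excess is read for D3T either. Canx, the glycoprotein chaperone calnexin, differed by -1.44 ± 0.19, -0.80 ± 0.19 and -0.80 ± 0.19 (adjusted p = 0.000187, 0.0134 and 0.0121). Hsp90b1, another chaperone of the endoplasmic reticulum, fell by 0.99 with D3T (adjusted p = 0.0201). Sec11a, a signal peptidase subunit, fell, with differences of -0.83 with D3T and -0.84 with TBD (adjusted p = 0.0234 and 0.0283). P4hb, a protein disulfide isomerase, rose by 0.58 with D3T (adjusted p = 0.0011). P4hb and Cebpa are named because each was the single riser of its list, after their values were seen.

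**Figure D5:**
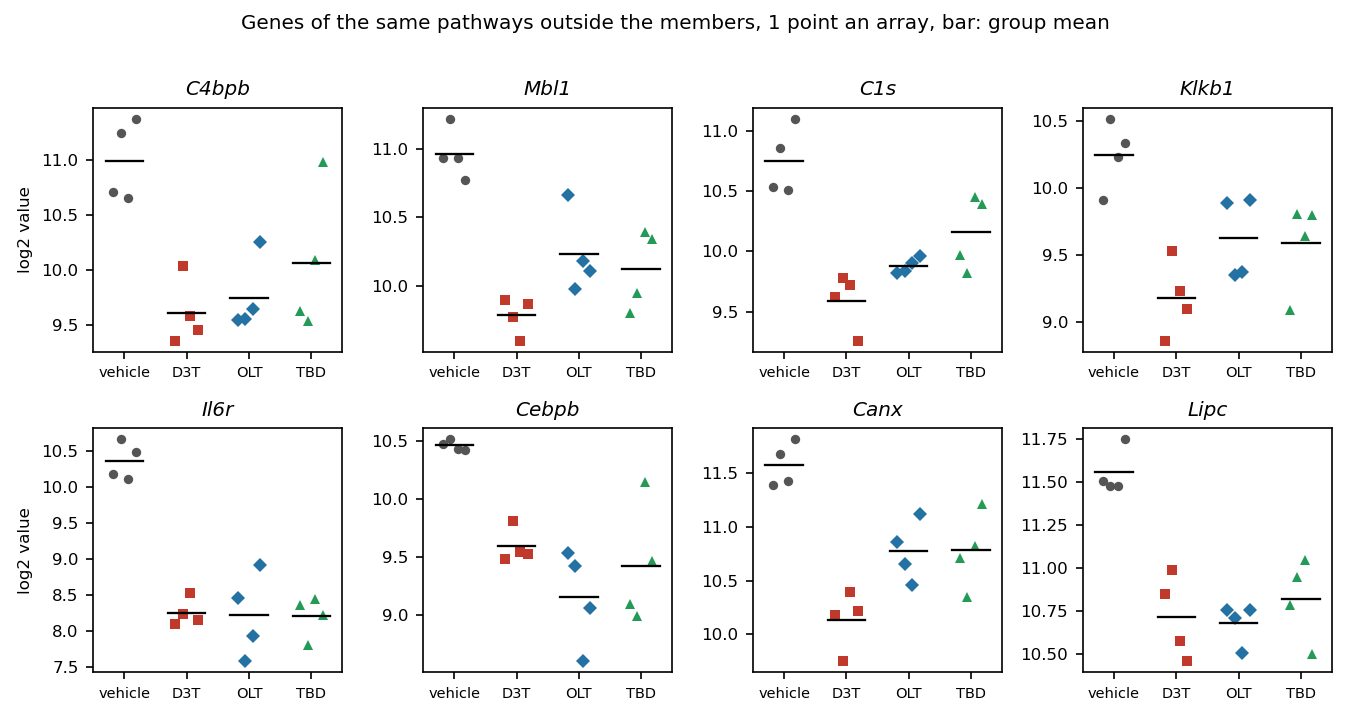
Log2 values of 8 genes outside the members, from complement (C4bpb, Mbl1, C1s), contact activation (Klkb1), acute phase signalling (Il6r, Cebpb), secretion (Canx) and lipoprotein remodelling (Lipc); each point is 1 array and bars are group means. All 12 treated arrays lie below the 4 vehicle arrays for Il6r and Lipc, and TBD replicate 4 is the highest TBD array for C4bpb at 10.98.

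Markers of other liver cells moved with the treated groups too. Of 8 measured Kupffer cell and macrophage markers (of 15 listed), 5 were lower with each compound, and the mean level of the list was 7.61 in vehicle (range over arrays 7.52 to 7.77), 6.73 with D3T (6.69 to 6.79), 6.84 with OLT (6.58 to 7.03) and 6.85 with TBD (6.65 to 7.04). None of the 8 lay below the array median. Aif1 fell, with differences of -2.01, -2.18 and -2.21 with D3T, OLT and TBD. Of 11 measured hepatocyte markers outside the members, 1 rose and 2 fell with D3T, and 4 fell with OLT and 3 with TBD. Stellate cell markers fell at 3, 2 and 3 of 7 tested genes and endothelial markers at 2, 0 and 1 of 5. Of 8 tested lymphocyte, cholangiocyte and red cell markers 0 were called in limma. At an unadjusted p under 0.05 these gave 1, 1 and 2 with D3T, OLT and TBD, beside 30.8%, 23.1% and 24.3% of all tested probe sets. Of those measured, 4 of 7 lymphocyte, 3 of 4 cholangiocyte and 2 of 3 red cell markers lay below the array median, where little fall could show. The part of these cells in the falls of Il6r, complement genes and members was not tested.

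The shares called are set beside those of equally bright probe sets here. Of the members, 19 had a mean of 13 or more over the arrays, and 4 of these rose and 3 fell with D3T. Of 45 other probe sets that bright, 8 rose and 4 fell (17.8% and 8.89%), with a median of 0.07 beside 0.08 for the members. At a mean of 11 to 13, 2 of 11 members rose and 4 fell, while 21% of 262 other probe sets rose and 15.3% fell.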

How the data were processed

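Liver RNA was hybridised to 16 single-colour Affymetrix rat arrays, 4 per group. The deposited values are log2 expression values from the authors; the submitters' processing notes name GCRMA. The release was not given in the sources used here. The arrays do not share 1 distribution as deposited: medians ran from 3.27 to 3.58.

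Of 8740 probe sets, 7006 have 1 gene symbol, 308 several and 1426 none. Testing was limited to probe sets whose value exceeded the 40th percentile of the array on 4 or more arrays, 5323 in all with 3417 left out; all 33 measured members were kept. A group-means model was fitted with limma 3.58.1 in R 4.3.3, with 6 pairwise comparisons and a moderated F test. P-values were Benjamini-Hochberg adjusted over the 5323, and 0.05 was the threshold. Intervals are 95% and unadjusted. The steps were tested on simulated data. The titles number the arrays of a group as replicates, and each array was taken as 1 rat. The number of arrays, 4 a group, limits the precision; the median residual SD was 0.195.

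Array values are given for members past the threshold against vehicle without overlap, at most 12, largest difference first, and for other lists up to 3 genes a comparison are named. The members and lists were chosen with earlier results of these data known. Alternatives covered the filter, the normalization, the variance model, the choice of probe set, the replicate number as a block, the threshold, and single arrays left out. No scanner files were used here. Promoter sequences came from RefSeq (GRCr8), and no genome coordinates belong to the array data. Figures were drawn with matplotlib 3.10.9 in Python 3.11.15.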

Additional observations from a re-analysis of the deposited data

Results flagged for a closer look

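In 9 of 132 groups of 4 arrays 1 array lay far from the other 3, its gap to the nearest over the whole range being above Dixon's critical value of 0.829. Chance gives about 1 in 20 such groups. Orm1 read 12.55 on TBD replicate 4, where the nearest TBD array read 11.57. Ttr read 13.96 on OLT replicate 1, where the others began at 14.30. Apcs read 11.13 on OLT replicate 3, below the others at 11.40 to 11.44. Crp read 10.75 on D3T replicate 2, below the nearest at 11.30, and 11.88 on OLT replicate 2, above the nearest at 11.59. Fgb read 13.55 on vehicle replicate 4, above the nearest at 13.36, and Apoc1 read 12.37 on vehicle replicate 2, below the nearest at 12.56. F2 read 13.45 on TBD replicate 3 and C3 read 14.23 on D3T replicate 2, where the nearest arrays were 13.25 and 14.03.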

How the results depend on the processing

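There were 21 member calls against vehicle (13, 3 and 5), and 0 of them changed direction under 26 other settings. Under all 26 the D3T calls of Apcs, Apoc1, Apoe, Apoh, Cp, Fgg, Gc, Orm1 and Ttr and the TBD calls of Apoe and Orm1 passed. Renewed quantile normalization gave 5 members for OLT, where 641 of all 5323 probe sets were called. It reduced the D3T differences of Alb to 0.10, Gc to 0.28 and Ttr to 0.36. Centring array medians gave 1 for OLT and 3 for TBD (361 and 426 of all). A fit of only the arrays compared gave 1 for OLT, 3 for TBD and 1 for D3T against OLT (445, 361 and 42 of all). An intensity trend in the variance gave 1 for D3T against TBD (35 of all). An adjusted p under 0.01 left 0 for OLT, 2 for TBD and 5 for the test among 4 groups (261, 318 and 399 of all). At an unadjusted p under 0.05 limma gave OLT 9 of 33 members, beside 23.1% of all tested probe sets. Leaving out OLT replicate 1 and TBD replicate 4 together gave 9 for OLT, 11 for TBD and 1 for D3T against OLT (700, 860 and 88 of all). Leaving out 1 array at a time gave 11 to 14 members for D3T, 1 to 7 for OLT, 2 to 9 for TBD, 5 to 13 for the test among 4 groups, 0 to 1 for D3T against OLT and against TBD, and 0 to 0 for TBD against OLT. Over all 5323 probe sets these fits called 689 to 1139 for D3T, 422 to 714 for OLT, 462 to 814 for TBD and 506 to 938 among 4 groups. Without vehicle replicate 2, 7 of the 21 calls were lost. The replicate number as a block gave 13 for D3T, 1 for OLT, 4 for TBD and 6 for the test among 4 groups. Over all probe sets it gave 888, 526, 630 and 644. Deviations of same-numbered arrays correlated at -0.52 to 0.32 over 24 pairs, 8 of them over 0.1. Those of arrays with other numbers correlated at -0.41 to 0.55 over 72 pairs, 23 of them over 0.1. No pairing by number showed in these values, but they cannot decide whether same-numbered rats were handled together. Array values carry no count depth; the brightest probe sets, such as Alb, lie near the top of the scale.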
